A study of Mus musculus with 4 samples.

Results

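The imprinted Dlk1 and Meg3 domain on mouse chromosome 12 was examined in 4 arrays of methylated DNA from 3T3-L1 cells, a mouse embryo fibroblast line that turns into fat cells when induced. Its members were all genomic probes that lie, in mm9 coordinates, within chr12:110685000-110815000, a window of 130 kb. There were 25 such probes among the 174638 genomic probes of the array. DNA carrying 5-methylcytosine had been immunoprecipitated with an antibody, labelled with Cy5 (IP) and hybridized together with Cy3-labelled input DNA (MeDIP-chip). The first group was the shRNA8 line at day +2, a line stably transfected with an shRNA named shRNA8 against the long non-coding RNA slincRAD and cultured in medium with 0.5 mM 3-isobutyl-1-methylxanthine (IBMX), 1 µM dexamethasone and 167 nM insulin. The second was the same line at day -2, before induction. The other groups were wild type control cells at day +2 in the induction medium and at day -2. Each group was 1 array, so no spread between replicates exists for any difference, and no p-value is given. The arrays shared 1 slide, with the shRNA8 line at positions 1 and 2 and the control line at positions 3 and 4, so line and position on the slide cannot be told apart. Day -2 was at positions 1 and 3 and day +2 at 2 and 4, so within a line day and position cannot be either. The labels do not say whether the shRNA8 line is 1 clone or a pool, and they name no shRNA or vector in the control line. The assay reads DNA, so neither the knockdown of slincRAD nor the RNA of Dlk1 or Meg3 could be checked. The input label of the shRNA8 line at day +2 gives that day but calls the cells uninduced, and was treated as day +2.

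Imprinted genes are expressed from the copy of one parent, and DNA methylation distinguishes the parental copies. In this domain Dlk1 is expressed from the paternal chromosome and the non-coding RNA Meg3 from the maternal one. An intergenic control region between them carries methylation inherited from sperm, and the Meg3 promoter gains methylation on the paternal copy later in development. Dlk1, also called Pref-1, encodes a membrane protein with EGF-like repeats that is made by preadipocytes and holds back fat cell differentiation. An array of mixed DNA reads both parental copies together and cannot tell them apart.

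The 25 probes stood in 3 dense groups. The first held 9 probes at chr12:110690143-110692119, the second 8 probes at chr12:110777906-110779505 and the third 8 probes at chr12:110782317-110783933. The stretch of 85786 bp between the first and the second group held no probe, nor did the last 31067 bp of the window. No probe therefore read the stretch between Dlk1 and Meg3 in which the intergenic control region lies, and its methylation was not measured. The arrays' files give a coordinate for each probe and no gene. RefSeq lists 3 promoters for these genes in the same order on GRCm38, another build, 1 for Dlk1 and 2 for Meg3. Their starts are 88173 bp and 4402 bp apart there, and the centres of the probe groups are 87574 bp and 4420 bp apart in mm9. The groups are called the Dlk1 group, the first Meg3 group and the second Meg3 group on this ground, and no probe is placed before or after a start.

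The promoters are shown because the antibody binds methylated cytosine, which in these cells stands mainly in CG pairs. No probe is placed relative to these bases, so their CG count sets no limit on the IP signal of a probe group. The sequences are the 250 bases before each start on the plus strand, from RefSeq on GRCm38.p6, with every CG in capitals.
Dlk1, chr12:109452573-109452822: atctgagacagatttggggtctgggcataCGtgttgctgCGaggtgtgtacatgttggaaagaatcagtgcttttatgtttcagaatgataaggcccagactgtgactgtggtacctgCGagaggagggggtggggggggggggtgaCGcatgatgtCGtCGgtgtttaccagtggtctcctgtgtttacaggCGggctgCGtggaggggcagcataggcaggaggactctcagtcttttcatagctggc
Meg3 first start, chr12:109540746-109540995: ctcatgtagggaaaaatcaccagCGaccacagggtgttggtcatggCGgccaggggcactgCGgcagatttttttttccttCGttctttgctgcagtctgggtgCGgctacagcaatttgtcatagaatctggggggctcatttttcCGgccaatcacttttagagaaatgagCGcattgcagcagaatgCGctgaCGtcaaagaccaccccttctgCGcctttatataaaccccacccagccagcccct
Meg3 second start, chr12:109545148-109545397: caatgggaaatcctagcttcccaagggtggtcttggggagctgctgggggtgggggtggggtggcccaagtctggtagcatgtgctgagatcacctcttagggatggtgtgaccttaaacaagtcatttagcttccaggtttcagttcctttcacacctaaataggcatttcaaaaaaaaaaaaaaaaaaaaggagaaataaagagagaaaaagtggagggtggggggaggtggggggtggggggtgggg

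The Dlk1 promoter held 8 CG pairs, the first Meg3 promoter 10 and the second Meg3 promoter 0. The median over 32851 RefSeq promoters of this length was 6, with quartiles of 2 and 16. The Dlk1 and first Meg3 promoters thus lay between the median and the upper quartile, and the second below the lower one. The first Meg3 promoter also holds the letters TGACGTCA, 57 bases before the start, which is the cyclic AMP response element and has a CG at its centre. It holds TATAAA, 25 bases before the start and clear of the other match. These letters were chosen after the sequence had been read, and both strands were searched. TGACGTCA occurs in 1.55% and TATAAA in 12.4% of the promoters, and neither occurs in the other 2 sequences. As background, IBMX in the induction medium raises cyclic AMP. A match of letters is a description and shows no binding.

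The 2 channels differed in how well they could be read. IP was above background in all 4 arrays at 23 of the 25 probes and in none at the other 2. Input was above background in all 4 arrays at 15 probes (60% of members, against 54.4% of all probes), and well above it at 11. Ratios of IP to input are given for these 15, with 6 in the Dlk1 group, 6 in the first Meg3 group and 3 in the second. Processed IP signal over the 25 probes ran from 13.9 to 15612 in the shRNA8 line at day +2 and from 13.1 to 16301 at day -2. In the control line it ran from 12.02 to 15593 at day +2 and from 13.2 to 14482 at day -2. The probes thus differed from each other by far more than any probe did between arrays. Across the 25 probes Pearson's r of the log2 IP signal was 0.997 to 0.999 for every pair of arrays. For the log2 input of the 15 probes with a usable input, r was 0.937 to 0.984. These probes share their sequence, length and brightness in every array, so the values describe the probes and are no measure of shared methylation.

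In the Dlk1 group, probes are numbered in map order. The brightest was probe 9, with IP signals of 15612 and 16301 in the shRNA8 line and 15593 and 14482 in the control line, at day +2 and day -2. Its input was as extreme, between the 99.3rd and the 99.4th percentile of all probes, so that its ratio was low. Probe 4 (chr12:110690933-110690977) had the highest ratio of the window, with a processed log2 ratio of 3.72 and 3.71 in the shRNA8 line and 3.73 and 3.995 in the control line. These values lay between the 99.7th and the 99.9th percentile of all probes. Its IP signal was 1063 to 1271, and its input, of 70.3 to 96.2, was above background in 3 of the 4 arrays. The ratio therefore rested on an input near the lower limit, and the probe was left out of the comparisons below. Probe 5, with IP signals of 203 to 235, and probe 3 had inputs too dim for a ratio as well. Probe 3 had an IP signal of only 42.3 and 34.6 in the shRNA8 line and 30.2 and 27.8 in the control line.

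Ratios below are log2 values centred on the median probe of each array and quantile normalized, so that 0 stands for the median probe. In the Dlk1 group, probe 6 (chr12:110691346-110691390) was highest, at 2.21 and 1.89 in the shRNA8 line and 1.83 and 1.97 in the control line. Probe 7 (chr12:110691663-110691707), the next one, was lowest, at -3.13 and -4.61 in the shRNA8 line and -4.76 and -3.77 in the control line. At probe 7 the IP signal was 12.02 to 13.9 and was above background in no array, so that its ratio moved with the input alone. Probe 1 was at -0.11 and -0.41 in the shRNA8 line and -0.77 and -0.23 in the control line. Probe 8 stood at 0.27 and 0.25 in the shRNA8 line and -0.31 and -0.23 in the control line, without overlap between the lines. Its centred IP did overlap between them. Probe 9 was at -1.37 to -1.25 in the 4 arrays.

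The first Meg3 group had a like alternation. Probe 6 (chr12:110779041-110779086) was highest, at 1.92 and 1.99 in the shRNA8 line and 1.62 and 1.94 in the control line at day +2 and day -2. Probe 7, the next one, was lowest on average, at -1.47 and -1.35 in the shRNA8 line and -1.39 and -1.81 in the control line. Probes 1 and 3 lay above the array median in all 4 arrays, at 0.15 to 0.50 and 0.24 to 0.77, and probe 5 below it, at -1.43 to -1.01. The highest probes of the Dlk1 group and of this group therefore had a like ratio near 2, and each stood beside one of the lowest. In the second Meg3 group, probe 3 stood at 0.61 and 0.51 in the shRNA8 line and 0.53 and 0.48 in the control line. Probe 4 (chr12:110782937-110782981) was the lowest there, at -3.37 and -2.18 in the shRNA8 line and -1.91 and -1.50 in the control line. Probe 5 was at 0.26 and 1.16 in the shRNA8 line and 0.59 and 0.53 in the control line. The members of the Meg3 groups without a ratio were dim in input and mostly in IP. Probes 4 and 8 of the first group had IP signals of 110 to 133 and 67.3 to 95.6. Of the second group, probes 1, 2, 6 and 8 lay between 52.0 and 516, and probe 7, at 12.3 to 14.8, was above background in IP in no array.

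Neighbouring probes did not share a level. Between 12 neighbouring pairs of usable probes in a group, the mean ratio over the arrays differed by a median of 2.29, and by up to 6.04. Probes left out could lie between the members of a pair. No such value was computed for neighbours elsewhere on the array, so these steps are not shown to be particular to the domain. The largest step was between probes 6 and 7 of the Dlk1 group, and IP at probe 7 was above background in no array. The SD of the mean ratio over the 15 probes was 1.59, close to that over all usable probes, 1.63. The SD of 1 probe over the 4 arrays was much smaller, with a median of 0.25 in the domain and 0.26 over all usable probes. Members were short, at 45 to 54 bp, and 17 of the 25 had 45 bp. Length moved the levels little. With the median of equally long probes taken off, the median over the domain was -0.16 and 0.22 in the shRNA8 line and -0.33 and -0.25 in the control line.

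As a whole the domain stood near the array median. The median of its 15 ratios was -0.11 and 0.24 in the shRNA8 line at day +2 and day -2 and -0.31 and -0.23 in the control line. All 3025 usable probes of chromosome 12 gave medians of -0.03 to 0.02. In the window of equal length that follows on the chromosome, 11 usable probes gave medians of 0.91 and 0.62 in the shRNA8 line and 0.61 and 0.93 in the control line. Whether that window lies outside the imprinted cluster was not examined, so it is a neighbour and no unimprinted reference. The equally long window before the domain held no probe.

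Taken by group, the mean ratio of the Dlk1 group was -0.40 ± 1.76 and -0.60 ± 2.24 in the shRNA8 line and -0.84 ± 2.20 and -0.39 ± 2.01 in the control line (SD over 6 probes). These levels lay between the 22.5th and 40.7th percentile of all 17452 regions of at least 3 probes. Without probe 7 they were 0.15 and 0.20 in the shRNA8 line and -0.05 and 0.28 in the control line. The first Meg3 group averaged -0.01 ± 1.26 and -0.47 ± 1.62 in the shRNA8 line and -0.14 ± 1.25 and -0.27 ± 1.38 in the control line (SD over 6 probes). The second Meg3 group averaged -0.83 ± 2.20 and -0.17 ± 1.77 in the shRNA8 line and -0.26 ± 1.43 and -0.16 ± 1.16 in the control line (SD over 3 probes). At day +2 the first Meg3 group was highest in both lines, above the Dlk1 group in the shRNA8 line and above the second Meg3 group in the control line. At day -2 both lines had the same order, with the second Meg3 group highest, the first next and the Dlk1 group lowest. Both orders rest on probe 7 of the Dlk1 group, whose IP was above background in no array. Without it the Dlk1 group had the highest mean in all 4 arrays. Whether the groups differ in level was not tested.

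The comparison of the shRNA8 line with the control line asked whether knockdown of slincRAD went with another methylation level at these genes. A probe group counted as higher or lower when its mean difference reached 0.6 in log2 units (1.52-fold) with no fewer than 75% of its probes on that side. At day +2, 0 of the 3 groups did, against 3.34% of all regions. Over all 15 probes the mean difference was 0.11 ± 0.68 (SD over probes, as in all that follow). The Dlk1 group differed by 0.44 ± 0.75, with 5 of 6 probes higher in the shRNA8 line, and by 0.20 without its farthest probe, probe 7 (1.64). Its centred input differed by -0.59 and its centred IP by -0.03. The difference was 0.11 without background subtraction, and it turned to -0.02 both with an input shared by the arrays and in the IP channel alone. Here and below, shared input and IP alone hold no input difference between arrays by construction. They restate the IP difference and are no separate check. The first Meg3 group differed by 0.13 ± 0.22, the smallest spread of the 3. The second differed by -0.57 ± 0.80, and by -0.13 without probe 4 (-1.46). Its centred input differed by 0.46, and the value turned to 0.01 with shared input and to 0.02 in IP alone. Single probes reached 0.6 in 4 of 15 cases, against 22.7% of all usable probes. Of these, 2 were higher and 2 lower, against 10.2% and 12.5%.

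At day -2, before induction, 0 of the 3 groups counted as higher or lower, against 2.43% of all regions. The mean difference was -0.16 ± 0.60 over all 15 probes. It was -0.21 ± 0.45 in the Dlk1 group, -0.20 ± 0.79 in the first Meg3 group and -0.01 ± 0.66 in the second. In single probes, 1 was higher and 3 were lower by at least 0.6, again 4 of 15. Over all usable probes 20.6% did so, 9.8% higher and 10.8% lower. Probe 5 of the second Meg3 group was the highest, at 0.63, and differed by -0.34 at day +2. At day -2 its centred input differed by -0.60 and its centred IP by 0.02, and the difference was 0.009 with shared input.

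Probe 2 of the first Meg3 group (chr12:110778125-110778169) was the lowest at day -2, at -1.75. Its ratio was -0.61 in the shRNA8 line at day +2 and -2.60 at day -2, and -0.83 and -0.85 in the control line. Only the shRNA8 line at day -2 stood apart, and in both channels. The IP signal was 2983 in the shRNA8 line at day +2 and 2010 at day -2, against 2809 and 2814 in the control line. The input signal was 3675 in the shRNA8 line at day +2 and 9866 at day -2, against 3964 and 4039 in the control line. The local background of the input at this spot was also raised on that array. It was 22 in the shRNA8 line at day +2 and 55.5 at day -2, against 20 and 23 in the control line. At the other members on the array of day -2 in the shRNA8 line it was 22 to 29. Its part in the result was not tested. The IP difference between the lines at day -2 was -0.61, and 0.75% of all probes with readable IP lay as far from 0. This is 1 spot on 1 array, and the other 5 usable probes of the group averaged 0.11 at day -2.

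Of the 15 probes, 1 was lower and 0 were higher by at least 0.6 in the shRNA8 line at both days. The background for higher was 2.02%. Probe 4 of the second Meg3 group differed by -1.46 at day +2 and by -0.68 at day -2, and 3.51% of all usable probes were likewise lower at both days. Its input was 4019 and 1671 in the shRNA8 line and 1347 and 918 in the control line at day +2 and day -2. Its IP signal was 505 and 456 in the shRNA8 line and 441 and 404 in the control line. The lower ratio thus came with a brighter input, and the IP signal, centred on each array, differed by 0.05 at both days.

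Day +2 was set against day -2 in each line to ask what changed with induction. In the shRNA8 line, 0 of the 3 groups counted as higher or lower, against 3.19% of all regions. The 15 probes changed by a mean of 0.13 ± 0.84. The Dlk1 group changed by 0.20 ± 0.80 and the first Meg3 group by 0.46 ± 0.79, which was 0.15 without probe 2 (1.99). The centred input of the first Meg3 group changed by -0.44 and its centred IP by 0.09, and the change was 0.09 with shared input. The second Meg3 group changed by -0.66 ± 0.68, past 0.6 in size, at the 1.96th percentile of all regions, but only 2 of its 3 probes were lower. Its centred input changed by 0.60 and its centred IP by 0.02. The change turned to 0.02 with shared input and to 0.03 in IP alone. Single probes reached 0.6 in 5 of 15 cases, 2 higher and 3 lower. Over all usable probes 18.9% did so, 8.82% higher and 10% lower.

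In the control line 0 of the 3 groups counted as higher or lower, against 2.09% of all regions. The mean over the 15 probes was -0.15 ± 0.43. The changes were -0.44 ± 0.45 in the Dlk1 group, 0.13 ± 0.28 in the first Meg3 group and -0.10 ± 0.27 in the second. The value of the Dlk1 group was at the 4.02nd percentile of all regions, with 5 of 6 probes lower, and became -0.33 without probe 7 (-0.998). Its centred input changed by 0.45 and its centred IP by -0.03. The change was -0.11 without background subtraction and -0.03 both with shared input and in IP alone. Single probes reached 0.6 in 2 of 15 cases, both lower. Over all usable probes 19.2% did so, 9.86% higher and 9.3% lower. The highest change was 0.42 at probe 7 of the first Meg3 group.

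Probe 2 of the Dlk1 group (chr12:110690371-110690420) was the 1 member lower by at least 0.6 at day +2 in both lines, against 2.06% of all usable probes. The member count for higher in both was 0, against 1.57%. The ratio of this probe was -0.38 at day +2 and 0.64 at day -2 in the shRNA8 line, and 0.24 at day +2 and 1.18 at day -2 in the control line. The days did not overlap. Its input was 633 at day +2 and 315 at day -2 in the shRNA8 line, and 336 at day +2 and 179 at day -2 in the control line. Its centred IP differed by -0.05 in the shRNA8 line and -0.08 in the control line, so the change stood in the input channel.

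The day changes of the 2 lines differed by 0.65 ± 0.96 in the Dlk1 group, with 5 of 6 probes higher in the shRNA8 line. It was the 1 of the 3 groups past the size rule, against 5.8% of all regions, or 2.76% in this direction. The call did not hold without probe 7, which differed by 2.48: the other 5 probes gave 0.28. It was also lost without background subtraction, with a within-array loess, with the median of probes and in the IP channel alone. The centred input of the group differed by -0.73 and the centred IP by 0.03. The first and second Meg3 groups differed by 0.33 ± 0.87 and -0.56 ± 0.55. The value of the second turned to 0.02 with no filter on input. Over single probes, 3 were higher and 2 lower by at least 0.6, against 14.4% and 15.1% of all usable probes (29.6% in all). Over all 15 probes the mean was 0.28 ± 0.92. This comparison draws on the same 4 arrays as the others.

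Since the input varied most between arrays, the IP channel was also compared alone at the 23 probes with readable IP, a choice made after the values were seen. The IP signal of the lines differed by 0.06 ± 0.11 at day +2 and by 0.02 ± 0.20 at day -2 (SD over 23 probes). Over all 150781 such probes the SD was 0.14 and 0.17, against 0.11 and 0.20 in the domain. The change from day -2 to day +2 was 0.04 ± 0.16 in the shRNA8 line and 0.01 ± 0.11 in the control line. A difference of at least 0.6 in IP was seen at 1 probe in 1 comparison, probe 2 of the first Meg3 group between the lines at day -2. The background was 0.797% of all such probes there, 0.427% between the lines at day +2, 0.524% for the day change in the shRNA8 line, 0.631% for that in the control line and 2.41% for the difference of day changes.

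Both arrays of the shRNA8 line exceeded both of the control line in IP at 5 of the 23 probes and lay below both at 3. Among all such probes these shares were 14% and 17.1%. Of the 5 higher probes, 4 lay in the Meg3 groups, which held 8 and 7 of the 23 probes. Of the 3 lower probes, 2 lay in the Dlk1 group and 1 in the first Meg3 group. At probe 3 of the first Meg3 group the centred log2 IP was 1.08 and 1.24 in the shRNA8 line and 1.005 and 0.96 in the control line. At probe 8 of the second it was 0.32 and 0.37 in the shRNA8 line and 0.20 and 0.07 in the control line.

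Both arrays of day +2 exceeded both of day -2 in IP at 6 probes and lay below both at 3, against 16.7% and 17.5% of all such probes. The first Meg3 group, with 8 of the 23 probes, held 4 of the 6, which are probes 1, 4, 5 and 7. At probes 1, 4 and 7 the change was 0.06, 0.04 and 0.002 in the shRNA8 line. In the control line it was 0.03, 0.08 and 0.20 there. At probe 5 (chr12:110778787-110778831) the change was 0.18 in the shRNA8 line and 0.16 in the control line, with a centred log2 IP of 1.95 at day +2 and 1.77 at day -2 in the shRNA8 line and 1.93 at day +2 and 1.76 at day -2 in the control line. Over the 8 probes of this group the IP change was 0.05 ± 0.23 in the shRNA8 line, with 5 probes higher and 3 lower, and 0.07 ± 0.07 in the control line, with 7 higher and 1 lower. In the Dlk1 group the IP change was 0.06 ± 0.12 in the shRNA8 line and -0.02 ± 0.09 in the control line (SD over 8 probes).

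In the ratio, the lines did not overlap at 3 of the 15 probes. Both arrays of the shRNA8 line lay higher at 2 and lower at 1, against 22.4% and 18% of all usable probes. The higher were probe 8 of the Dlk1 group and probe 5 of the first Meg3 group. The lower was probe 4 of the second Meg3 group. At probe 8 the centred input differed by -0.67 at day +2 and -0.50 at day -2, and the centred IP by 0.008 and -0.018. At probe 5 the centred input differed by -0.58 and -0.14, and the centred IP by 0.03 and 0.004. In IP alone the lines overlapped at both of these probes. Both arrays of day +2 lay higher than those of day -2 at 5 probes and lower at 2, against 15.7% and 15.2%.

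Likeness of the 4 mean ratios was measured as Euclidean distance over the 4 arrays from the first Meg3 group. That group was the highest of the 3 on average with every usable probe kept, but not without probe 7 of the Dlk1 group. The nearest regions elsewhere were chr11:88833295-88835197 at a distance of 0.04, chr2:86011483-86012592 at 0.08 and chr15:100517865-100519480 at 0.09. The Dlk1 group lay at a distance of 0.82, and 5889 regions were nearer. The second Meg3 group lay at 0.89, with 6566 regions nearer. The measure says nothing of shared function.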

How the data were processed

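The 4 arrays, 1 per group, were read from Agilent Feature Extraction 11.0.1.1 output on build mm9, per the file headers. The deposited intensity columns hold the spot signal, its background and a processed signal that is background-subtracted and dye-normalized, per the file headers. The deposited log10 ratio was not used further, since ratios were taken from the signals. The submitters' processing notes name limma with no role. Cy5 was taken as IP and Cy3 as input, per the labels.

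Spots marked saturated, non-uniform or outlying in any array were left out (none in the domain), which kept 174301 probes. Ratios used the 95060 probes with input above background in all 4 arrays, centred on the array median and quantile normalized, which removes differences in overall methylation. Regions were at least 3 probes up to 1000 bp apart. SDs are over probes of the same arrays, and precision is limited by having 1 array a group. Median net input was 8.78 and 8.64 in the shRNA8 line and 5.95 and 6.49 in the control line at day +2 and day -2, over backgrounds of 22 to 26, and median net IP was 48.9 to 56.5. All arrays were on 1 slide.

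The members and lists were chosen with earlier results of these data known. The rule for named probes took every group, the 3 highest and 3 lowest levels after allowing for probe length, the extremes of each comparison, and probes past 0.6 with one sign at both days or in both lines. Other probes were named after their values were seen. Python 3.11.15, numpy 2.4.6, pandas 2.3.3, R 4.3.3 and limma 3.58.1 (loess) were used.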

Additional observations from a re-analysis of the deposited data

Results flagged for a closer look

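Probe 7 of the Dlk1 group moved in opposite directions at the 2 days and in the 2 lines, each time by at least 0.6. The line difference was 1.64 at day +2 and -0.84 at day -2, and the day change was 1.48 in the shRNA8 line and -0.998 in the control line. The difference between these effects was not tested, since each group is 1 array. Its processed input was 93.2 and 254 in the shRNA8 line and 275 and 144 in the control line at day +2 and day -2, while its IP was above background in no array.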

How the results depend on the processing

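The 5 mean differences over the domain were recomputed under 13 alternatives, and all 65 values moved by less than the SD over probes, which is wide (0.43 to 0.92). Each of the 5 means was itself smaller than its SD, so a fall to 0 would also have counted as within it. This count is therefore no sign of stability. With shared input, for one, the difference of day changes fell from 0.28 to 0.008. The sign turned in 6 of the 65 values. Of the 195 values for the 3 groups, 4 moved by more, all in the second Meg3 group, and 27 turned sign. The count of called groups for the difference of day changes, 1, was 0 with a within-array loess, with input well above background, without background subtraction, with shared input, in the IP channel alone, with a size of 1, with all probes moving the same way, with the median of probes, without probes at background in IP and without the farthest probe. Input well above background, leaving out probes at background in IP and leaving out the farthest probe all took out probe 7 of the Dlk1 group. They are therefore not separate checks. For the line difference at day +2 the count was 1 in place of 0 with no centring, with a size of 0.4 and with probes up to 500 bp apart. For the day change in the control line it was 1 with a size of 0.4. With shared input and in the IP channel alone, probe 7 of the Dlk1 group reversed to -0.0041 and -0.010 in the line difference at day +2, and in IP alone to 0.0068 in the day change of the control line and -0.057 in the difference of day changes. Probe 4 of the second Meg3 group reversed to 0.030 and 0.056 in the line difference at day +2 and to 0.070 and 0.11 in the day change of the shRNA8 line, with shared input and in IP alone. Both settings hold no input difference between arrays by construction. No paired analysis was possible because the groups share 1 replicate number, with 1 array each. A fit of line and day as additive terms, which takes their interaction as the error, was not run. Input signal near background limits 10 of the 25 probes.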

Other observations

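In the window that follows the domain on the chromosome, chr12:110833128-110834191 had a mean ratio of 0.95 and 0.78 in the shRNA8 line and 0.62 and 0.98 in the control line at day +2 and day -2 (4 probes), between the 87.2nd and 95.2nd percentile of all regions. Its SD over probes was 0.17 to 0.57, smaller than in any of the 3 groups of the domain. The region chr12:110841695-110842241 averaged -1.09 and -0.92 in the shRNA8 line and -1.31 and -1.01 in the control line (3 probes).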
